A study of Rattus norvegicus with 6 samples.

Results

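The members described here are 8 genes of the neurexin, neuroligin and cerebellin families, Nrxn2, Nrxn3, Nlgn1, Nlgn2, Nlgn3, Cbln1, Cbln2 and Cbln4, out of 32883 genes measured in every library. They were chosen by symbol from the deposited gene table and not by their values. Other genes of these families were not analysed here. Neurexins are adhesion proteins of the axon terminal. Neuroligins sit on the dendrite opposite them and bind them across the synaptic cleft, Nlgn1 mostly at excitatory synapses, Nlgn2 at inhibitory synapses and Nlgn3 at both. Cerebellins are secreted proteins of the C1q family that bridge presynaptic neurexins and postsynaptic glutamate receptors of the delta type. In the striatum these proteins organise the inputs to medium spiny neurons (MSNs), the GABAergic projection cells of which D1 MSNs carry the Drd1 dopamine receptor and D2 MSNs the Drd2 receptor.

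Single-nucleus RNA sequencing was done on punches of the nucleus accumbens shell of Long-Evans rats of 90 to 100 days, kept in same-sex pairs, with no treatment named in the labels. There were 3 female and 3 male libraries, each from a pool of frozen tissue of 4 rats, so a replicate is a pool and single animals cannot be told apart. The study compared the sexes. The labels of male pool 1 and female pool 3 (set A) give a strain, an age and a note with the word premrna, and those of the other 4 libraries (set B) do not. The sources used here do not say what this split stands for. The libraries kept 2807 to 14325 nuclei and 10752662 to 77324472 UMIs (unique molecular identifiers, each 1 counted RNA molecule), with medians of 3074.5 to 4821 UMIs per nucleus. Any pair of libraries shared 0 to 38 barcodes.

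The 34362 nuclei formed 34 clusters, made without the members, their partner genes or other genes of their families. Clusters with enough raised markers were named "-like" and held 55.9% of nuclei. Unnamed clusters held 35.7% and clusters with a high median doublet score and many UMIs per nucleus, called mixed, 8.45%. Mixed clusters are left out of the comparisons of classes. The D1 MSN-like class had all 6 markers of its list raised, with Drd1 at 20.2 CPM (UMIs of a gene per 1000000 UMIs of the class) against 2.12 in the main D2 MSN-like cluster. That D2 cluster had Drd2 at 835 CPM against 22.5. The glutamatergic-like class, of 1833 nuclei, came almost wholly from set A (1831 nuclei), and cluster 8 had 1354 of its 1380 nuclei in male pool 1. Neither enters a comparison of classes, or of the sexes within a class, below. Both, like the mixed clusters, are in the totals and the sex comparison over all nuclei. Comparisons used 14 classes that reached 20 nuclei in all 6 libraries, 7 named and 7 known by number and leading genes. Cluster 6 had the eccentric MSN markers Otof, Casz1 and Pcdh8 raised, but none of that list and Foxp2, of another list, among its 10 leading genes, and is called by its number. The D1 MSN-like class also had none of its own markers among its 10 leading genes, but none of another list either, and its Drd1 level was below that of cluster 6 (24.7 CPM).

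The members differed in how often they were seen, and their levels are not compared with each other because a 3′ count also depends on each transcript's end. Nrxn3 (ENSRNOG00000047574) had 1502992 UMIs and was seen in 92.2% of nuclei. Nlgn1 (ENSRNOG00000032576) had 792611 UMIs in 91.4% of nuclei. Nrxn2 (ENSRNOG00000021103) was seen in 42.4% of nuclei, Nlgn2 (ENSRNOG00000015430) in 17.9% and Nlgn3 (ENSRNOG00000003812) in 14.5%. Cerebellins were sparse. Cbln4 (ENSRNOG00000004372) had 444 UMIs, Cbln2 (ENSRNOG00000013654) had 307 and Cbln1 (ENSRNOG00000000010) had 23. The low-count filter of the class fit kept 6 members and left out Cbln1 and Cbln2. Cbln4 passed it through the few classes in which it was high, so its values in this fit are given as a description, with no p, and it is in no count of members that passed higher or lower.

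**Figure D1:**
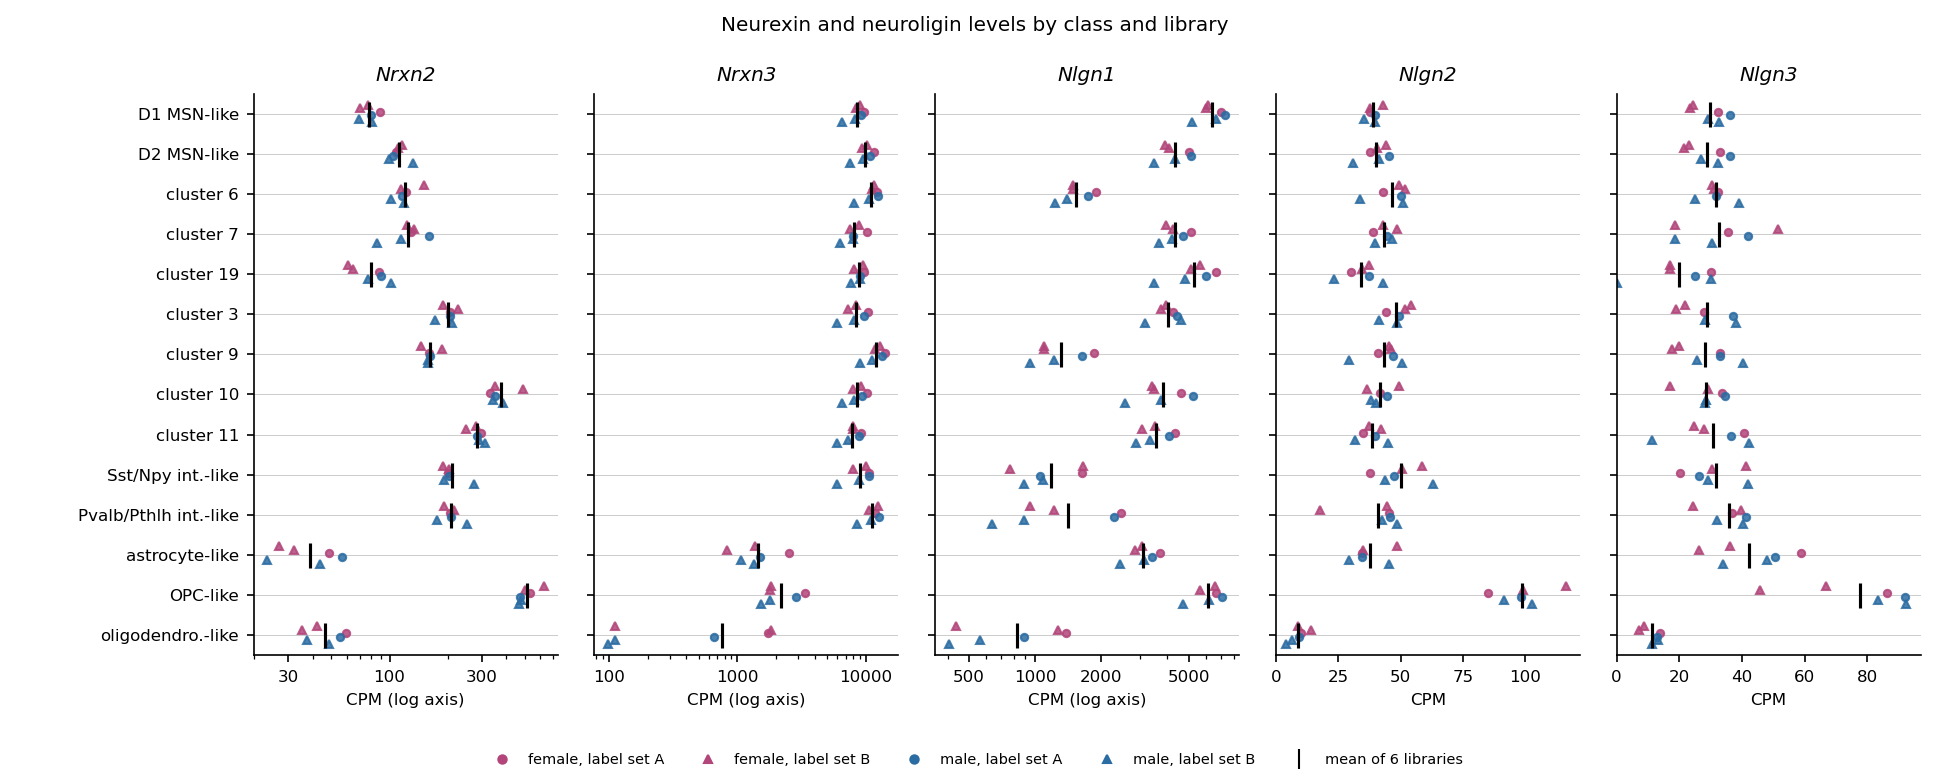
Levels of the neurexin and neuroligin members in the 14 classes (CPM, on a log axis for Nrxn2, Nrxn3 and Nlgn1 and a linear axis for Nlgn2 and Nlgn3). Each point is 1 library, coloured by sex and shaped by label set, and the bar is the mean of 6. Nrxn2, Nlgn2 and Nlgn3 are highest in OPC-like nuclei, and Nrxn3 is high in every neuronal class shown.

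Nrxn2, a neurexin gene, was highest in OPC-like nuclei, the oligodendrocyte precursor cells. There it ran from 467 to 628 CPM over the 6 libraries, with a median of 490. Cluster 10, led by Sema3c and Lhx8, came next at 375 ± 59.6 CPM (SD, n = 6), then cluster 11, led by Hpse and Slfn5, at 285 ± 21.8 CPM. Each of the first 3 steps of this order held in 6 of 6 libraries (exact sign-flip test, p = 0.03125, the smallest that 6 libraries can give, adjusted p = 0.15625 over 104 pairs of neighbouring classes of all members). The order was ranked on the same libraries, so the pairs were not fixed in advance and this p is a description. Sst/Npy interneuron-like nuclei (210 ± 31.4 CPM) and Pvalb/Pthlh interneuron-like nuclei (208 ± 25.1 CPM) lay within each other's spread. D1 MSN-like nuclei were at 78.1 ± 7.22 CPM, oligodendrocyte-like nuclei at 46.5 ± 9.81 CPM and astrocyte-like nuclei, the lowest, at 38.6 ± 13.2 CPM.

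Nrxn3 was high in all neuronal classes and low in glia. Among neurons the means ran from 7888 ± 1129 CPM (SD, n = 6) in cluster 11 to 12089 ± 1843 CPM in cluster 9, a cluster led by Chst9 and Col14a1. Male pool 3 was the lowest library in each of these 11 neuronal classes. Below them came OPC-like nuclei at 2203 ± 742 CPM, with no overlap between libraries of the neuronal classes and of the OPC-like class. Astrocyte-like nuclei followed at 1443 ± 578 CPM and were lower than OPC-like nuclei in 6 of 6 libraries (exact sign-flip p = 0.03125, adjusted p = 0.15625, for a pair again ranked on the same libraries). In oligodendrocyte-like nuclei, at 763 ± 829 CPM, the SD was larger than the mean. Female pools 1 to 3 had 112, 1844 and 1748 CPM in them and male pools 1 to 3 had 663, 112 and 98.5 CPM, so that 2 libraries stood far above the other 4.

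D1 MSN-like and D2 MSN-like nuclei were compared for both neurexins, and Nrxn2 passed the test. Nrxn2 was at 69.9 to 89.1 CPM (median 78.9) in D1 MSN-like and at 99.2 to 132 CPM (median 109) in D2 MSN-like nuclei, with no overlap. Its log2 fold change was -0.51 ± 0.09 (SE), a level 1.42-fold lower in D1 MSN-like nuclei (edgeR quasi-likelihood test, adjusted p = 6.47e-06). In this comparison 799 of 11551 genes passed (6.92%, with 4.09% higher and 2.82% lower), and of the 5 members tested besides Cbln4 Nlgn1 was higher and Nrxn2 lower. The difference was -0.32 in set A and -0.60 in set B on average, on the log2(CPM + 1) scale, and it was lower in 6 of 6 libraries. Nrxn3 did not pass (log2 fold change -0.21 ± 0.25, adjusted p = 0.878). Within libraries, though, it was lower in D1 MSN-like nuclei in 6 of 6, by 0.21 ± 0.03 log2 units (SD, exact sign-flip p = 0.03125, adjusted p = 0.0625 over 64 such tests). The 2 D2 MSN-like clusters were not alike in it, since the smaller one, of 200 nuclei, held Nrxn3 at 16490 ± 2301 CPM and the larger at 9516 ± 1267 CPM.

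**Figure D2:**
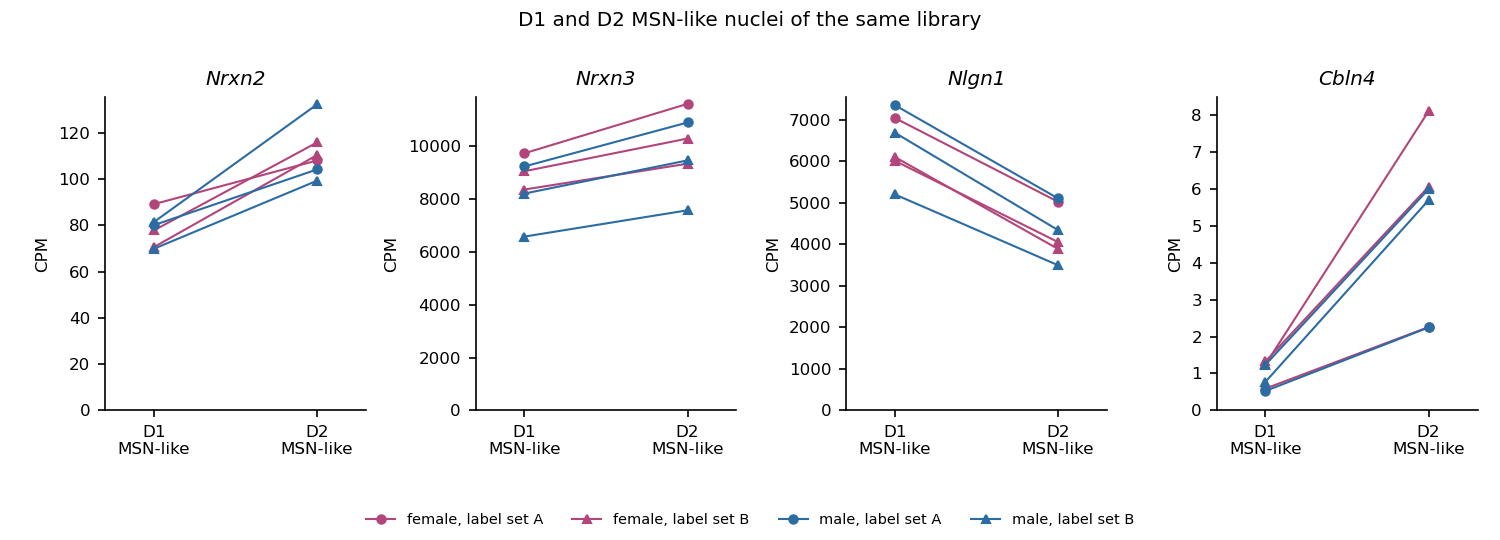
Levels of Nrxn2, Nrxn3, Nlgn1 and Cbln4 in D1 MSN-like and D2 MSN-like nuclei (CPM), with a line joining the 2 classes of each library, coloured by sex and with points shaped by label set. Nrxn2, Nrxn3 and Cbln4 are lower and Nlgn1 is higher in D1 MSN-like nuclei in 6 of 6 libraries, though Nrxn3 did not pass the test across genes.

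Interneurons carried more Nrxn2 than MSNs. Against the mean of D1 and D2 MSN-like nuclei, its log2 fold change was 0.97 ± 0.10 (SE) in Sst/Npy interneuron-like nuclei, a level 1.96-fold higher (adjusted p = 7.21e-14). Of all genes tested 38.5% passed there, 18.8% higher and 19.7% lower, and of the 5 members tested besides Cbln4 Nrxn2 was higher and Nlgn1 lower. In Pvalb/Pthlh interneuron-like nuclei it was 1.05 ± 0.10, or 2.07-fold higher (adjusted p = 3.61e-16), where 42.9% of genes passed, 22% higher and 20.9% lower. In cluster 6 it was 0.30 ± 0.09 (adjusted p = 0.00435), where 23.2% passed, 10.9% higher and 12.3% lower. In each of the latter 2 comparisons 1 member was higher (Nrxn2) and 1 lower (Nlgn1). The Nrxn2 call in cluster 6 was lost without the library term in the fit (adjusted p = 0.0597). Nrxn3 passed in none of these 3 comparisons, with log2 fold changes of -0.20, 0.21 and 0.23 and SEs of 0.22, 0.22 and 0.21. Without the low-count filter it passed in Sst/Npy interneuron-like nuclei (-0.33, adjusted p = 0.0337).

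Both neurexins were lower in astrocyte-like and oligodendrocyte-like nuclei than in MSNs. Nrxn3 was 6.50-fold lower in astrocyte-like nuclei (log2 fold change -2.70 ± 0.25, adjusted p = 9.72e-17) and 13.2-fold lower in oligodendrocyte-like nuclei (-3.72 ± 0.27, adjusted p = 4.56e-22). Nrxn2 was 2.25-fold lower in astrocyte-like (-1.17 ± 0.11, adjusted p = 6.32e-17) and 1.67-fold lower in oligodendrocyte-like nuclei (-0.74 ± 0.10, adjusted p = 8.06e-10). In set A alone the oligodendrocyte-like Nrxn3 value was -3.11 and in set B alone -4.55. Most genes passed in these 2 comparisons. In astrocyte-like nuclei 71% passed, 37.9% higher and 33.1% lower, with 1 member higher and 3 lower. In oligodendrocyte-like nuclei 74.3% passed, 39.6% higher and 34.7% lower, with 5 members lower and none higher. Within the oligodendrocyte lineage, Nrxn2 was 8.52-fold higher in OPC-like than in oligodendrocyte-like nuclei (log2 fold change 3.09 ± 0.12, adjusted p = 3.28e-40), in 6 of 6 libraries, where 47.9% of genes passed, 22.9% higher and 25% lower. Nrxn3 was 2.85-fold higher there (1.51 ± 0.27, adjusted p = 1.39e-06), in 5 of 6 libraries. The exception was female pool 2, and the value was 1.94 without that library and 2.14 in set B alone. Astrocyte-like nuclei had less Nrxn2 than oligodendrocyte-like nuclei (-0.43 ± 0.14, adjusted p = 0.00563) and more Nrxn3 (1.02 ± 0.27, adjusted p = 0.00071), where 53.2% of genes passed, 26.3% higher and 26.8% lower, and 4 members were higher and 1 lower. In set A alone neither neurexin passed (adjusted p = 0.121 and 0.0629). Nrxn2 did not pass either without female pool 1 (adjusted p = 0.0513) or without TMM scaling (0.14), nor Nrxn3 without the library term (0.0559). The Nrxn3 difference was 1.72 in set B alone and 1.53 without female pool 2.

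The Nrxn3 level in oligodendrocyte-like nuclei moved with MSN markers in the same nuclei. As a percent of the MSN level of the same library, Nrxn3 was at 1.16, 20.8 and 16.4 in female pools 1 to 3 and at 6.58, 1.27 and 1.39 in male pools 1 to 3. Pde10a, a phosphodiesterase gene of MSNs, was at 1.49, 18.2, 6.72, 4.01, 2.15 and 2.05 percent in that order. Meis2, a transcription factor gene of MSNs, was at 1.90, 19.1, 13.3, 7.13, 2.72 and 2.47 percent. Of the 7 general MSN markers, 6 were highest in female pool 2 and 5 were lowest in female pool 1, and none was at 0. Their summed level was 6.98 to 25.2 percent of that in MSNs. Female pool 2 had 88 oligodendrocyte-like nuclei, the fewest, and 536 came from female pool 1. The part of RNA from MSNs in these Nrxn3 values was not tested.

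**Figure D3:**
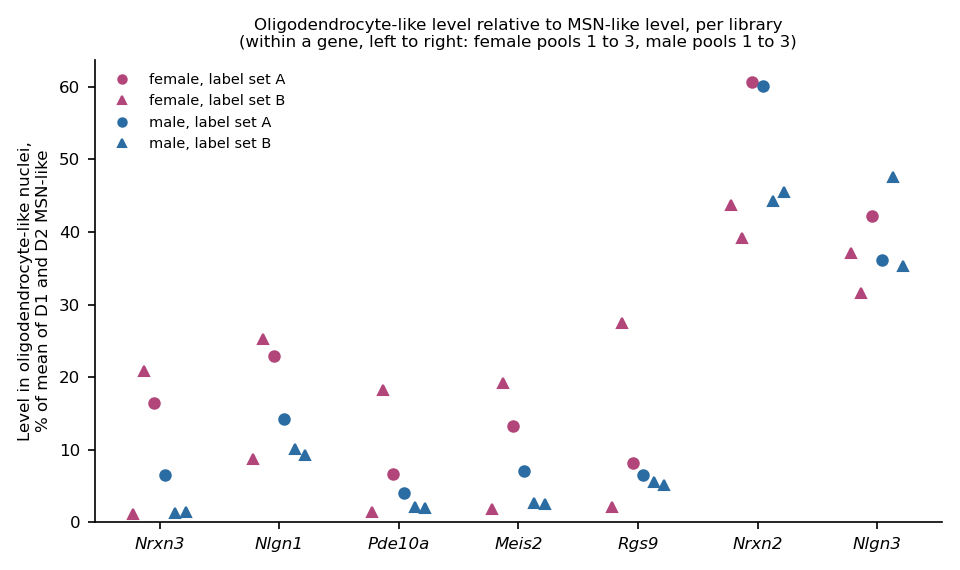
Level in oligodendrocyte-like nuclei as a percent of the mean of D1 and D2 MSN-like nuclei of the same library, for Nrxn3, Nlgn1, Nrxn2 and Nlgn3 and for the MSN markers Pde10a, Meis2 and Rgs9. Each point is 1 library, coloured by sex and shaped by label set. Nrxn3, Nlgn1 and the markers are highest in female pool 2, where Nrxn3 is at 20.8 percent, and Nrxn2 is not.

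Nlgn1 separated the spiny neuron classes. It was highest in D1 MSN-like nuclei, at 5201 to 7350 CPM (median 6394), and lower in D2 MSN-like nuclei, at 3497 to 5106 CPM (median 4198). The ranges did not overlap. Each library was higher in D1 than in D2 MSN-like nuclei, by 0.57 ± 0.06 log2 units (SD, n = 6), and the log2 fold change was 0.57 ± 0.14 (SE), or 1.48-fold (adjusted p = 0.00414). This call was lost in set A alone (0.49, adjusted p = 0.0938) and in the fit without the library term (0.56, adjusted p = 0.664). The 2 D2 clusters again differed, with 1333 ± 470 CPM in the smaller and 4481 ± 733 CPM in the larger. The fold change without the smaller was 0.51 (adjusted p = 0.0126).

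Nlgn1 was low in interneurons and in cluster 6. Sst/Npy interneuron-like nuclei were at 770 to 1656 CPM (median 1066), 4.98-fold below MSNs (log2 fold change -2.32 ± 0.15, adjusted p = 5.38e-25). Cluster 6 was at 1239 to 1886 CPM (median 1491), 3.53-fold below them (-1.82 ± 0.14, adjusted p = 4.2e-20). No library of either class reached the lowest D2 MSN-like library. Pvalb/Pthlh interneuron-like nuclei were 4.09-fold below MSNs (-2.03 ± 0.14, adjusted p = 1.9e-22), but here the sets stood apart, at 2463 and 2287 CPM in set A and 637 to 1217 CPM in set B. Fitted in each set alone, the log2 fold change was -1.45 in set A and -2.51 in set B. Cluster 9 held Nlgn1 at 1308 ± 352 CPM, so the cluster with the highest Nrxn3 was among the lowest in Nlgn1.

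Glia also held Nlgn1. OPC-like nuclei were at 4699 to 7093 CPM (median 6386), overlapping D1 MSN-like nuclei, which stood next to them in the order. Astrocyte-like nuclei were at 3104 ± 445 CPM, 1.72-fold below MSNs (-0.78 ± 0.13, adjusted p = 1.26e-07). Oligodendrocyte-like nuclei were at 824 ± 427 CPM, 6.18-fold below MSNs (-2.63 ± 0.15, adjusted p = 3.74e-29), and were again highest in female pools 2 and 3 (1269 and 1384 CPM). OPC-like nuclei were 6.62-fold above them (2.73 ± 0.16, adjusted p = 1.36e-27) and astrocyte-like nuclei 3.6-fold above them (1.85 ± 0.15, adjusted p = 6.27e-19), each in 6 of 6 libraries. The 2 astrocyte-like clusters overlapped in Nlgn1 (3133 ± 407 and 3005 ± 592 CPM), while Nrxn3 was at 1048 ± 576 CPM in the larger and 2436 ± 666 CPM in the smaller.

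Among the 14 classes, Nlgn2 and Nlgn3 had their highest and lowest levels within the oligodendrocyte lineage. The low levels were shared by classes outside the 14. With libraries pooled, microglia-like nuclei had Nlgn2 at 8.58 CPM, against 8.80 CPM in oligodendrocyte-like nuclei. Fibroblast-like nuclei had Nlgn3 at 11.4 CPM, against 12.3 CPM. OPC-like nuclei had Nlgn2 at 85.1 to 116 CPM (median 98.5), above every library of the other 13 classes, whose means ran from 8.92 to 50.2 CPM. Oligodendrocyte-like nuclei were lowest, at 4.28 to 14.2 CPM (median 9.07, 58 UMIs in all). The log2 fold change between the 2 classes was 3.17 ± 0.15, or 9.0-fold (adjusted p = 4.44e-34). Nlgn3 was at 45.7 to 92.4 CPM (median 84.9) in OPC-like and at 7.09 to 13.7 CPM (median 12.2, 81 UMIs) in oligodendrocyte-like nuclei, 5.55-fold apart (2.47 ± 0.20, adjusted p = 1.41e-19). In all, 5 members were higher in OPC-like than in oligodendrocyte-like nuclei and none lower, where 22.9% of all genes were higher and 25% lower.

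Against MSNs, Nlgn2 was 4.0-fold lower in oligodendrocyte-like nuclei (-2.0 ± 0.12, adjusted p = 7.25e-27) and Nlgn3 2.23-fold lower (-1.16 ± 0.16, adjusted p = 1.49e-09). Astrocyte-like nuclei had more Nlgn3 than MSNs (0.59 ± 0.12, or 1.5-fold, adjusted p = 1.32e-05), at 26.3 to 58.8 CPM against 23.4 to 36.2 CPM in D1 MSN-like nuclei. These ranges overlapped, though astrocyte-like nuclei were higher in 6 of 6 libraries. Nlgn2 in astrocyte-like nuclei did not pass (-0.11 ± 0.08, adjusted p = 0.297), but it did in set A alone (-0.30, adjusted p = 0.0395) and without male pool 3 (-0.27, adjusted p = 0.0188). Both were higher in astrocyte-like than in oligodendrocyte-like nuclei, Nlgn2 by 1.89 ± 0.15 and Nlgn3 by 1.75 ± 0.19 on the log2 scale (adjusted p = 4.5e-20 and 8.24e-14). Between D1 and D2 MSN-like nuclei Nlgn2 differed by -0.08 ± 0.06 and Nlgn3 by 0.03 ± 0.11, and neither passed. Nor did either pass in Sst/Npy or Pvalb/Pthlh interneuron-like nuclei or in cluster 6, where Nlgn2 passed only without TMM scaling (0.21, adjusted p = 0.0287). Nlgn3 in Sst/Npy interneuron-like nuclei depended on the set, with a log2 fold change of -0.75 (adjusted p = 0.0104) in set A and 0.29 in set B, against -0.28 in all libraries, and it passed without female pool 1 (-0.54, adjusted p = 0.0366).

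**Figure D4:**
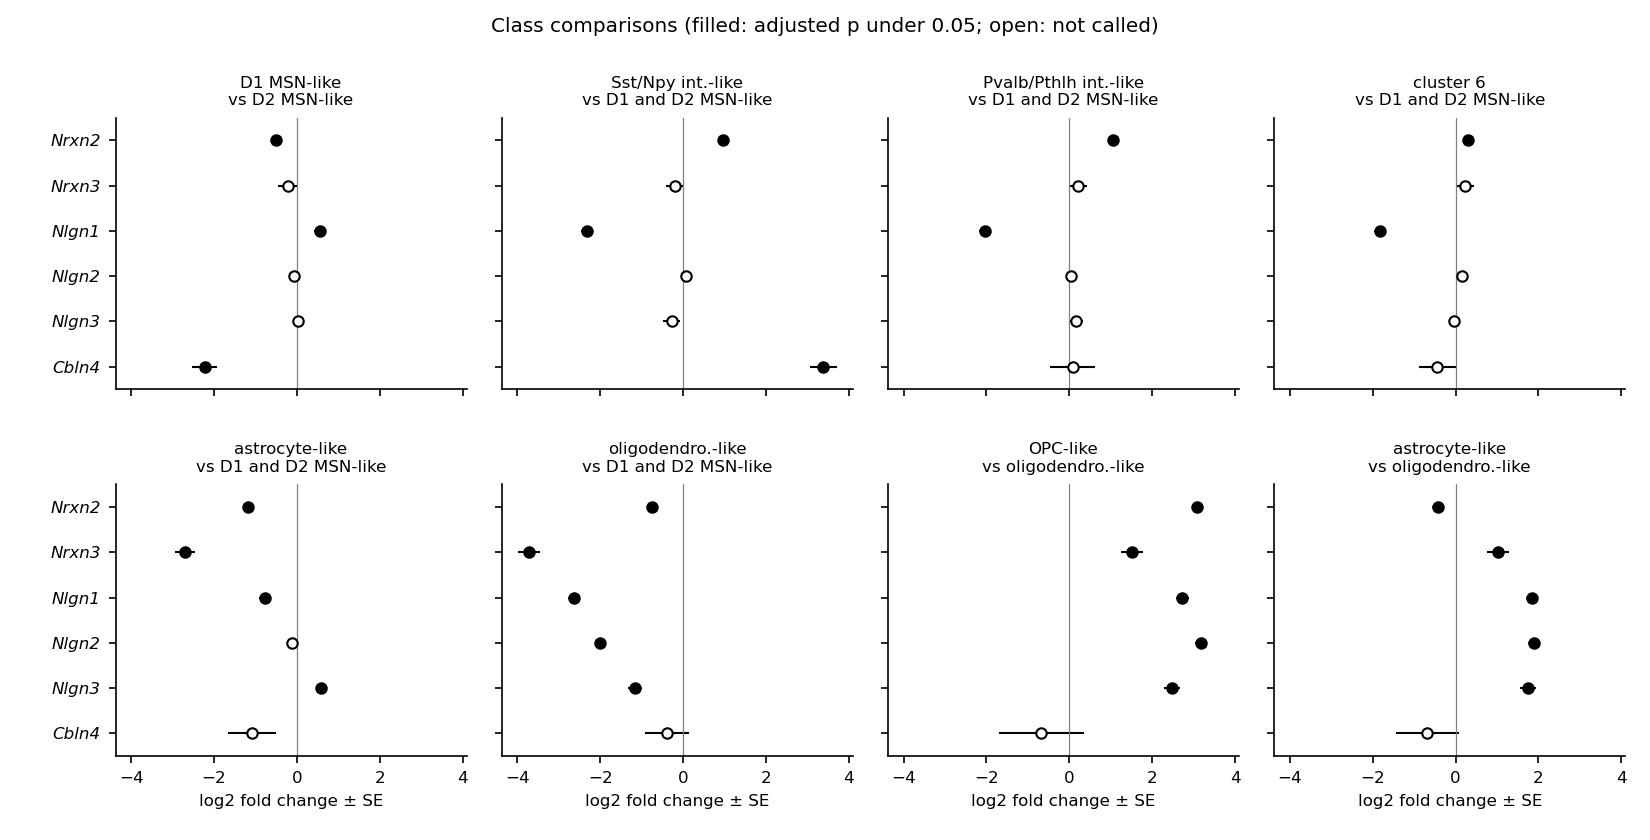
Log2 fold change of the tested members in the 8 class comparisons, with bars for 1 SE. Filled points passed at an adjusted p under 0.05 and open points did not, and those of Cbln4 are a description, since it entered the fit through classes in which it was high. Nlgn1 lies below 0 in both interneuron classes and cluster 6, and 5 members lie above 0 in OPC-like against oligodendrocyte-like nuclei.

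Among the cerebellins, Cbln2 and Cbln4 shared their highest class, the Sst/Npy interneuron-like nuclei, named after interneurons that make somatostatin and neuropeptide Y. In these nuclei Sst, Nos1 and Chodl were raised. Npy, at 1.94 CPM, was under the level that a raised marker needed, though it was higher there than in any other cluster (next cluster 7, at 0.212 CPM). The promoters of Cbln2 and Cbln4 are shown because these genes share that class. The RefSeq promoter set used here, on the GRCr8 build, has entries for 5 of the 8 members. From it the 250 bases before the annotated start are given, 5′ to 3′ on the gene's strand, with GC boxes (GGGCGG on either strand) in capitals. That of Cbln2 is at chr18:82215953-82216202 on the plus strand and that of Cbln4 at chr3:181225601-181225850 on the minus strand.
Cbln2: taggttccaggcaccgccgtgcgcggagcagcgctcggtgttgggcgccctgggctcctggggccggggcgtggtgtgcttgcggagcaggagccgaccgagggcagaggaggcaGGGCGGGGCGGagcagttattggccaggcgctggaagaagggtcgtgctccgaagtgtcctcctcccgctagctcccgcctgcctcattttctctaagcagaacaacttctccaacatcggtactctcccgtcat
Cbln4: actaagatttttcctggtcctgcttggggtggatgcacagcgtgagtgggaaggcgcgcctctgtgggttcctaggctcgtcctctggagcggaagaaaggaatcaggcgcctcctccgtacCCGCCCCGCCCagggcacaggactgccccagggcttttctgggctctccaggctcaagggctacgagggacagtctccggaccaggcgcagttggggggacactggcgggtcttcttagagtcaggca
In each, 2 GC boxes overlap by 1 base to form GGGCGGGGCGG on 1 strand or the other, starting 135 bases before the start in Cbln2 and 128 in Cbln4. A GC box was in 30.5% of 33469 promoter windows of this length, and the overlapping pair in 1.48%, or 495. The GC share was 66% in Cbln2 and 63.2% in Cbln4, against a median of 51.2% over all windows. Neither window held the other motifs searched on both strands, which were the TATA box TATAAA (in 12.9% of windows), the homeodomain core TAATTA (4.86%), the cyclic AMP response element TGACGTCA (1.59%), the AP-1 site TGANTCA (6.34%) and the E-box CAGCTG (12%). Of the other members with an entry, Nlgn2 had 3 GC boxes and no overlapping pair, and Nlgn1 and Nlgn3 had none.

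In Sst/Npy interneuron-like nuclei, female pools 1 to 3 held Cbln4 at 13.8, 40.5 and 15.2 CPM and male pools 1 to 3 at 26.5, 14.6 and 48.9 CPM, from 44 UMIs in all. Every one of these values lay above every D1 and D2 MSN-like value. Against MSNs the fitted log2 fold change was 3.38 ± 0.33 (SE), or 10.4-fold. In set B alone, with doublets kept, without female pool 3 and without male pool 1, Cbln4 was under the low-count filter and had no fitted value. Cluster 3, led by Bnc2, Reln and Ebf1, was second at 10.1 ± 3.29 CPM (SD, n = 6, 99 UMIs).

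Between the 2 MSN classes the Cbln4 levels did not overlap. In D2 MSN-like nuclei, female pools 1 to 3 held it at 8.10, 6.06 and 2.26 CPM and male pools 1 to 3 at 2.25, 5.99 and 5.69 CPM, from 88 UMIs. D1 MSN-like nuclei had 27 UMIs and 0.53 to 1.33 CPM (median 1.01). No D1 value reached the lowest D2 value, and the 2 libraries of set A were the lowest of the 6 in D2 MSN-like nuclei. The fitted log2 fold change was -2.22 ± 0.30 (SE), 4.66-fold lower in D1 MSN-like nuclei, and -1.95 in set A alone. It was lower in 6 of 6 libraries (exact sign-flip p = 0.03125, adjusted p = 0.0625 over 64 tests). Per library the mean difference was -1.06 in set A and -1.79 in set B on the log2(CPM + 1) scale.

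Cbln2 was at 6.88, 20.3 and 3.79 CPM in Sst/Npy interneuron-like nuclei of female pools 1 to 3, from 2, 2 and 3 UMIs. In male pools 1 to 3 it was at 30.3, 24.4 and 28.0 CPM, from 16, 5 and 4 UMIs. It was higher than in MSNs in 6 of 6 libraries, by 3.65 ± 1.24 on the log2(CPM + 1) scale (SD, exact sign-flip p = 0.03125, adjusted p = 0.0625 over 64 tests). D1 MSN-like nuclei had 11 UMIs of Cbln2 in 5066 nuclei and D2 MSN-like nuclei 11 in 3552. Cluster 3 (6.29 ± 4.25 CPM) and cluster 10 (5.19 ± 3.63 CPM) came next and overlapped.

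Few nuclei of any class had a cerebellin UMI. Cbln4 was seen in 40 of 404 Sst/Npy interneuron-like nuclei (9.90%, Wilson 95% interval 7.36 to 13.2%), in 4.31% of cluster 3, in 2.36% of D2 MSN-like and in 0.513% of D1 MSN-like nuclei. Background was read from classes that should lack it, 0.238% of oligodendrocyte-like nuclei (median 1701 UMIs) and 0.671% of microglia-like nuclei (3 of 447, median 1349 UMIs), against medians of 4417 UMIs in Sst/Npy interneuron-like, 5282.5 in D2 MSN-like and 5452.5 in D1 MSN-like nuclei. The D1 MSN-like share lay between the shares of these glial classes, which were shallower, and the microglia-like interval was wide (0.229 to 1.95%). Whether the D1 MSN-like share exceeds background was not tested. The D1 MSN-like level behind the fold change above was thus not told apart from background. Vascular-like nuclei had a share of 1.44% (6 of 417, 0.661 to 3.10%), with 5 of the 6 UMIs in male pool 1. Cbln2 was in 6.68% of Sst/Npy interneuron-like nuclei (4.63 to 9.55%), from 1.75% in female pool 3 to 15.8% in male pool 1, and in 10.3% without female pool 3 (24 of 233). It was in 3.44% of cluster 10 and in 2.86% of cluster 3, against 0.268% of oligodendrocyte-like nuclei and 0 of 447 microglia-like nuclei, which allows a share with a UMI of up to 0.671%. With every nucleus thinned to 1000 UMIs, Cbln4 was in 1.49% of Sst/Npy interneuron-like, 0.566% of D2 MSN-like, 0.138% of D1 MSN-like and 0.168% of oligodendrocyte-like nuclei, leaving out 2, 21, 4 and 390 shallower nuclei. Microglia-like nuclei were then at 0.593% (2 of 337, 0.163 to 2.14%), an interval too wide to place the D2 MSN-like share (0.367 to 0.873%). That share stood above the oligodendrocyte-like one, though the intervals overlapped (0.0720 to 0.394% in oligodendrocyte-like nuclei). Astrocyte-like nuclei were at 0.0867% (0.0238 to 0.316%). These shares were not tested against each other. Cbln2 was then in 0.995% of Sst/Npy interneuron-like and 0.0674% of oligodendrocyte-like nuclei. The intervals cover counting error only. Of the Sst/Npy interneuron-like nuclei, 27 had a Cbln2 UMI, 40 a Cbln4 UMI and 5 both.

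Cbln1 had 23 UMIs in all nuclei, of which 9 were in cluster 3 and the others spread at 0 to 3 UMIs over the remaining 13 classes and the nuclei outside them. It was seen in 0.485% of cluster 3 (0.255 to 0.919%). It had 0 UMIs in 404 Sst/Npy interneuron-like nuclei, which allows a share with a UMI of up to 0.743%.

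**Figure D5:**
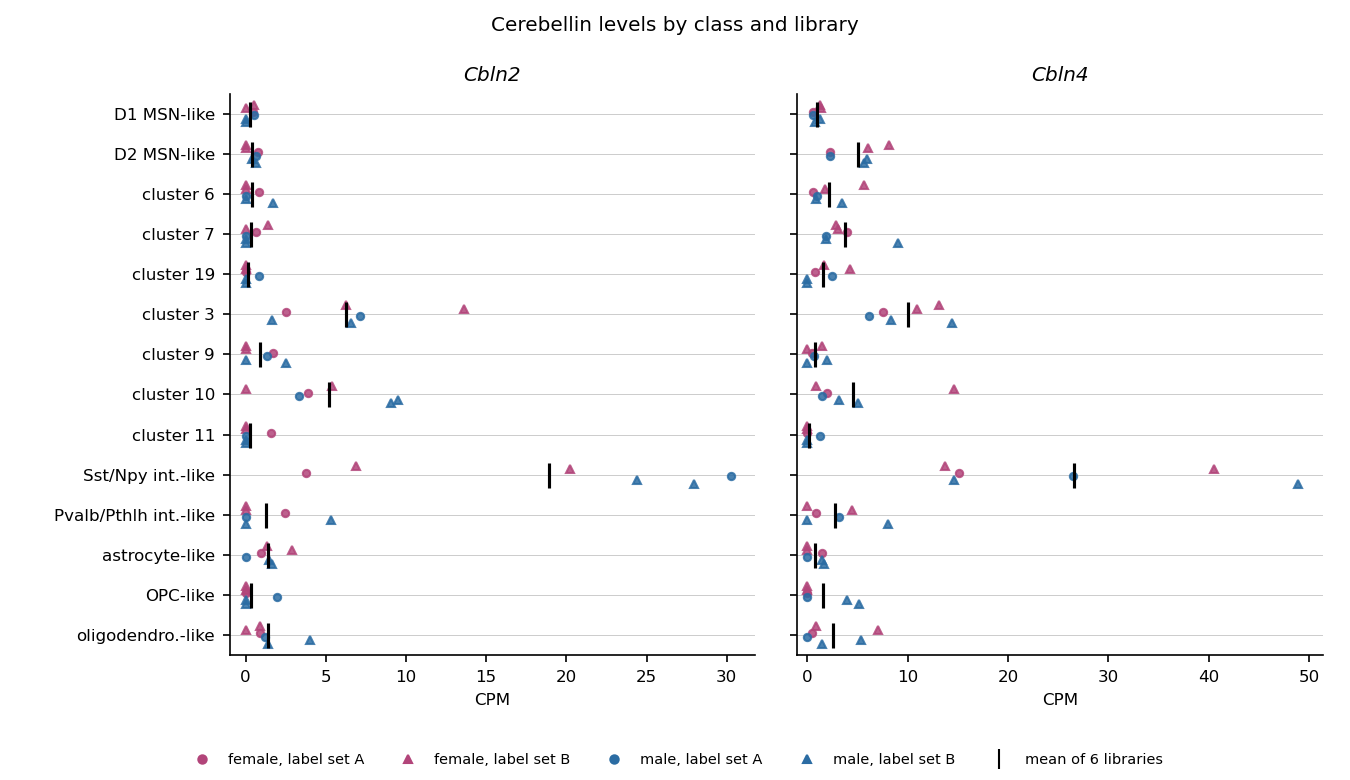
Cbln2 and Cbln4 by class (CPM), each point 1 library, coloured by sex and shaped by label set, with the mean of 6 as a bar. Both are highest in Sst/Npy interneuron-like nuclei, at 18.9 CPM for Cbln2 and 26.6 CPM for Cbln4, with cluster 3 second.

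The cerebellin receptor gene Grid1, which encodes a delta glutamate receptor, was measured in the same classes. It was lower than in MSNs in Sst/Npy interneuron-like nuclei, by -0.46 ± 0.10 on the log2 scale (adjusted p = 8.06e-05), and in Pvalb/Pthlh interneuron-like nuclei (-1.08 ± 0.11, adjusted p = 3.52e-15). In oligodendrocyte-like nuclei it was also lower (-0.86 ± 0.09, adjusted p = 5.15e-14). Astrocyte-like nuclei (0.03 ± 0.08) and cluster 6 (-0.16 ± 0.08) did not pass against MSNs, nor did D1 against D2 MSN-like nuclei (-0.12 ± 0.09). OPC-like nuclei had more Grid1 than oligodendrocyte-like nuclei, by 1.42 ± 0.11 (adjusted p = 1.39e-20).

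A wider list of 34 genes held cerebellin receptors, other neurexin ligands, neuroligin regulators, synaptic scaffolds and splicing factors of neurexin transcripts. The files held 33 of them and the fit tested 29. Between D1 and D2 MSN-like nuclei 4 passed (13.8%, against 6.92% of all genes), 3 higher and 1 lower, with a median log2 fold change of 0.02 over the 29 and of 0 to 2 decimals over all genes. Mdga1, whose product binds neuroligins and keeps them from neurexins, was higher in D1 MSN-like nuclei (0.92 ± 0.16, adjusted p = 3.87e-06). So was Khdrbs3, a splicing factor of neurexin transcripts (0.57 ± 0.14, adjusted p = 0.00198). The latrophilin gene Adgrl2 was lower (-0.67 ± 0.13, adjusted p = 0.000104).

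In Sst/Npy interneuron-like nuclei 25 partner genes passed against MSNs (86.2%, against 38.5% of all genes), 10 higher and 15 lower (median -0.28). Nxph1, a neurexophilin that binds neurexins, was highest at 3.59 ± 0.32, followed by C1ql2 at 3.04 ± 0.47 (adjusted p = 1.61e-16 and 5.65e-08). Mdga1 was lower at -2.15 ± 0.52 and Khdrbs2 at -1.94 ± 0.22 (adjusted p = 0.000397 and 1.71e-12). Pvalb/Pthlh interneuron-like nuclei had 21 that passed (72.4%, against 42.9%), 8 higher and 13 lower (median -0.21), led by Nxph1 at 5.63 ± 0.20 and Khdrbs3 at 1.99 ± 0.16. Lrrtm3, a postsynaptic neurexin ligand, and Khdrbs2 were lowest there, both at -1.83. Cluster 6 had 11 that passed (37.9%, against 23.2%), 6 higher and 5 lower (median -0.07), with Mdga1 at 1.84 ± 0.13 and Khdrbs3 at 1.63 ± 0.12 above MSNs and Adgrl2 at -1.15 ± 0.14 and the scaffold gene Magi2 at -1.04 ± 0.09 below them. The medians over all genes were within 0.02 of 0 in these 3 comparisons.

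Glia and MSNs differed in most partner genes, as they did in most genes. In astrocyte-like nuclei 26 passed (89.7%, against 71% of all genes), 9 higher and 17 lower (median -0.38, against 0.06 over all genes), with Lrrtm4 and Lrrtm3 lowest at -4.19 ± 0.33 and -4.09 ± 0.27 and Mdga1 and C1ql1 highest at 1.54 ± 0.16 and 1.47 ± 0.37. In oligodendrocyte-like nuclei 27 passed (93.1%, against 74.3%), 8 higher and 19 lower (median -0.93, against 0.08). The scaffold gene Shank2 was at -3.54 ± 0.16 and Adgrl2 at -3.33 ± 0.19, with Nxph1 at 1.64 ± 0.34 and Khdrbs3 at 1.62 ± 0.13. OPC-like nuclei exceeded oligodendrocyte-like nuclei in 22 partner genes and were below them in 2 (82.8% in all, against 47.9%, median 1.15, against -0.09). C1ql1, a secreted C1q-family ligand, was at 6.46 ± 0.24 and Lrrtm4 at 3.95 ± 0.35 there, and Lrrtm3 at -1.29 ± 0.25 and the adaptor gene Apba1 at -0.56 ± 0.12. Astrocyte-like nuclei exceeded oligodendrocyte-like nuclei in 15 and were below them in 7 (75.9% in all, against 53.2%, median 0.44, against -0.06). Apba2 and Shank3 led at 2.93 ± 0.14 and 2.77 ± 0.27, and Lrrtm3 and Apba1 were lowest at -4.70 ± 0.29 and -3.44 ± 0.13.

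No member differed between females and males at an adjusted p under 0.05 in all nuclei or in any of the 6 classes fitted alone. Few genes did. In all nuclei 7 of 16200 genes passed in edgeR (0.0432%), 1193 had an unadjusted p under 0.05 and 15 passed in DESeq2. The shares that passed were 0.0553% in D1 MSN-like, 0.0601% in D2 MSN-like, 0.149% in Sst/Npy interneuron-like, 0.0678% in astrocyte-like, 0.0903% in oligodendrocyte-like and 0.101% in OPC-like nuclei. In all nuclei the female minus male log2 values of the 7 members tested ran from -0.38 ± 0.36 for Cbln2 to 0.25 ± 0.27 for Nrxn3. Female libraries had Nrxn3 at 8216 ± 51.6 CPM (SD, n = 3) and male libraries at 7212 ± 1214 CPM. Nlgn3 was at 26.7 ± 5.16 CPM in females and 31.8 ± 3.38 CPM in males (log2 fold change -0.20 ± 0.14, adjusted p = 0.689). No partner gene passed in any of the 7 fits either.

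The largest sex value among the members was that of Nrxn3 in oligodendrocyte-like nuclei, 2.35 ± 0.69 on the log2 scale (adjusted p = 0.95). It was 0.80 without female pool 2 (adjusted p = 0.373), 3.06 without female pool 3 and 3.04 without male pool 1, none of which passed. It passed without the low-count filter (2.37, adjusted p = 2.45e-17) and without female pool 1 (2.77, adjusted p = 4.39e-05). Female pool 1 had Nrxn3 at 112 CPM, as low as the lowest male libraries, so the sexes overlapped, and the MSN markers given above moved with it. Nlgn1 in the same nuclei was at 0.64 ± 0.30 (adjusted p = 0.95) and passed without female pool 1 (0.94, adjusted p = 0.0137). Cbln2 in Sst/Npy interneuron-like nuclei, at 10.3 ± 8.75 CPM in females and 27.5 ± 2.96 CPM in males, was under the filter and had no test. In all nuclei Cbln2 was at 1.33 ± 0.52 CPM in females and 1.91 ± 0.56 CPM in males.

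Of the 104 pairs of neighbouring classes in the members' orders, 20 were on 1 side in 6 of 6 libraries with the smallest possible exact p of 0.03125, and 0 had an adjusted p under 0.05, since 0.15625 was the lowest. The orders were ranked on the libraries in which the pairs were tested, so these p-values are a description. Nrxn2 had 7 such steps, Nrxn3 had 5, Nlgn1, Nlgn2 and Cbln4 had 2 each, Nlgn3 and Cbln2 had 1 each and Cbln1 had none. The step from OPC-like nuclei down to the second class was among them for Nrxn2, Nlgn2 and Nlgn3. The step from Sst/Npy interneuron-like nuclei down to cluster 3 was among them for Cbln2 and Cbln4. Leaving out any 1 library changed the highest class of none of the 8 members.

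Genes whose mean level over the 14 classes was most like a member's were ranked among 12171 genes by Pearson's r of log2(CPM + 1), as a description over classes that share libraries. Nearest to Nrxn3 were Bsn (r = 0.98), the gene of the presynaptic scaffold bassoon, Herc1 and AABR07051518.1. Nrxn2 was nearest to Ephb2 (0.93), an ephrin receptor gene, Ttc9 and AABR07019403.1. For Nlgn1 the likeness was lower, at 0.84 for Nop2 and 0.83 for Zfhx3. Nlgn2 was nearest to AABR07004891.1, Camsap2 and Fchsd2, and Nlgn3 to Snx5 (0.97), Lrp1 and Fchsd2. Nlgn2 and Nlgn3 had r = 0.90 with each other, and Cbln2 and Cbln4 had r = 0.81. Cbln2 was nearest to Pnoc (0.94), which encodes the nociceptin precursor, Zdhhc8 and Fchsd1. Cbln4 was nearest to Zmynd8 (0.87), Gpr139 and Rftn1. Cbln1, on 23 UMIs, was nearest to Nr2f2, Slc17a6 and Bnc2, the last a leading gene of cluster 3. Nrxn3 and Nlgn1 had r = 0.14.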

How the data were processed

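The deposited files were UMI counts per gene and nucleus barcode for 6 libraries, made with 10x Genomics 3′ v3.1 kits per the labels and with Cell Ranger 4.0.0 per the file headers, on rn6 per the submitters' processing notes. The sources used here do not say whether intronic reads or strand were counted. Nuclei with at least 500 UMIs and 300 genes and under 5% mitochondrial UMIs were kept, and the barcodes with the highest doublet scores (0.8% per 1000 nuclei, 3094 in all) were removed. Clustering used scanpy 1.11.5, 3000 variable genes, 30 components and Leiden resolution 1, without 66 genes (the members, partners, families, mitochondrial and sex-linked genes). A name needed 3 raised markers.

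Counts were summed per library and class and tested with edgeR 4.0.16 (quasi-likelihood, TMM, Benjamini-Hochberg adjustment over all genes), by class and library in 1 fit of 25452 nuclei (74.1%), and by sex and label set. Exact sign-flip tests over libraries (except of neighbouring classes), the fit without the smaller D2 MSN-like cluster and the cerebellin shares without each library were chosen after seeing the data. Alternatives used DESeq2 1.42.0 and the settings given at the end. Libraries of a sex differed beyond sampling noise (chi-square per degree of freedom 25.3 to 208). In the class fit the edgeR p-values measure the spread of library sums around the fit, pooled over all 14 classes. That is not the spread of the compared classes alone. By sex, the p-values measure the spread between pools. The members and lists were chosen with earlier results of these data known. Named were all members, in each class comparison the 2 passing partner genes farthest from 0 in each direction, and the 3 genes most like each member. Some genes that these rules name are not reported here. Code was tested on simulated data.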

Additional observations from a re-analysis of the deposited data

How the results depend on the processing

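Of 736 log2 values of members in class comparisons under an alternative, 698 kept their direction and side of the threshold, 8 lost a call, 6 gained 1 and 24 changed sign. Of 494 in sex comparisons, 459 kept both, 3 gained a call and 32 changed sign. No value that had passed changed sign. These counts include Cbln4 where it was tested, and its values are a description. For each change below the cause was not tested.

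Without the library term (no replicate block), 207 genes passed between D1 and D2 MSN-like nuclei, and 986 genes and 1 member in cluster 6. With a replicate block the sex comparisons called 3 genes in all nuclei, 3 in D1 MSN-like, 0 in D2 MSN-like, 0 in Sst/Npy interneuron-like, 3 in oligodendrocyte-like and 2 in OPC-like nuclei. Deviations from the mean of each sex had correlations of -0.75, 0.23 and -0.64 between pools of equal replicate number. Numbers 1 and 3 set a pool of set A against a pool of set B. For those numbers a pairing of pools and the label set cannot be told apart, so the values cannot show whether pools were paired. Without the low-count filter, counts by sex were 11 in all nuclei, 97 in D1 MSN-like, 62 in D2 MSN-like, 24 in astrocyte-like, 99 and 1 member in oligodendrocyte-like and 10 in OPC-like nuclei. Also without that filter, Nrxn3 passed between Sst/Npy interneuron-like nuclei and MSNs, as given above. DESeq2 called 15 genes by sex in all nuclei. Without the label set term 4 passed in Sst/Npy interneuron-like and 4 in oligodendrocyte-like nuclei. Between classes, set A alone called 3 members in astrocyte-like against oligodendrocyte-like nuclei, and set B alone 3300 genes in Pvalb/Pthlh interneuron-like nuclei against MSNs. In Sst/Npy interneuron-like nuclei against MSNs, Nlgn3 gained a call in set A alone, as given above. Leaving out 1 library at a time gave 3 to 11 genes by sex in all nuclei (3 without male pool 3, 11 without female pool 1), 3 to 11 in Sst/Npy interneuron-like (3 without male pool 1, 5 without female pool 3), 6 to 35 in astrocyte-like and 6 to 178 in oligodendrocyte-like nuclei, where 0 to 2 members passed. The 35, the 178 and the 2 members came without female pool 1. The Sst/Npy interneuron-like share of nuclei with Cbln4 was 5.82% at 2000 UMIs and 9.90% unthinned, and that with Cbln2 6.68% unthinned.

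Sign changes were as follows, on the log2 scale. Against MSNs in Pvalb/Pthlh interneuron-like nuclei, Nlgn2 was -0.0125 at Leiden resolution 2, -0.14 with doublets kept, -0.22 in set B, -0.082 without the filter, -0.000789 without the library term and -0.068 to 0.17 over left-out libraries, and Cbln4 was -0.038 without the filter, -0.12 without the library term and -0.20 to 0.34 over left-out libraries. In Sst/Npy interneuron-like nuclei, Nlgn2 was -0.093 in set A, -0.057 without the filter and -0.024 to 0.18 over left-out libraries, and Nlgn3 was 0.29 in set B. In cluster 6, Nlgn3 was 0.046 with doublets kept, 0.13 in set B, 0.021 without TMM, 0.056 without the library term and -0.089 to 0.098 over left-out libraries. Nlgn2 in astrocyte-like nuclei was 0.029 in set B, and Cbln4 in oligodendrocyte-like nuclei was 0.31 at Leiden resolution 2. Cbln4 in astrocyte-like against oligodendrocyte-like nuclei was 1.41 in set A, and Nlgn3 in D1 against D2 MSN-like nuclei was -0.026 in set A.

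By sex, Nrxn2 in oligodendrocyte-like nuclei was 0.00143 at Leiden resolution 2, 0.027 with at least 1000 UMIs, 0.018 with doublets kept, 0.014 without TMM, 0.030 without the filter and -0.10 to 0.11 over left-out libraries. Nlgn2 in Sst/Npy interneuron-like nuclei was 0.036 with doublets kept. Without TMM, Nlgn1 in D1 MSN-like nuclei was -0.00391 and Nlgn2 in OPC-like nuclei -0.000195. Over left-out libraries, Nrxn2 ran from -0.00408 to 0.22 in all nuclei and -0.063 to 0.14 in D2 MSN-like nuclei, and Nrxn3 from -0.00483 to 0.32 in Sst/Npy interneuron-like and -0.16 to 0.42 in astrocyte-like nuclei. Nlgn1 ran from -0.090 to 0.15 in D1 MSN-like, -0.069 to 0.13 in D2 MSN-like and -0.042 to 0.17 in OPC-like nuclei. Nlgn2 ran from -0.010 to 0.15 in D1 MSN-like, -0.084 to 0.24 in D2 MSN-like, -0.27 to 0.072 in Sst/Npy interneuron-like, -0.055 to 0.26 in astrocyte-like and -0.12 to 0.19 in OPC-like nuclei. Nlgn3 ran from -0.37 to 0.085 in astrocyte-like nuclei, and Cbln4 from -0.25 to 0.039 in all nuclei.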
